A study of Mus musculus with 18 samples.

Results

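Nrp1-negative regulatory T cells (Treg) were compared with conventional CD4 T cells (Tconv), both lacking CD28. The comparison rests on 6 of the 18 libraries of the study, chosen by their labels and not by a measured value: CD28KO pTreg replicates 1 to 3 and CD28KO Tconv replicates 1 to 3. Treg are CD4 T cells that restrain other lymphocytes and are held in that state by the transcription factor Foxp3. Some leave the thymus as Treg, and others arise in the periphery from conventional T cells; in mice the surface receptor neuropilin-1, Nrp1, is used to separate the former, Nrp1+, from the latter, which lack it. CD28 is the receptor through which T cells read costimulation by CD80 and CD86, and it supports thymic Treg formation and Treg upkeep in the spleen.

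Cells of all 6 libraries were sorted from spleens of CD28-/-Foxp3EGFP mice on the C57BL/6 background, a germline CD28 mutant in which EGFP marks Foxp3-expressing cells, so the mutation is carried by every cell of the animal and by both groups compared. The other 12 libraries were Nrp1+ Treg (tTreg) of the same mutant, and tTreg, pTreg and Tconv of Foxp3EGFP mice with intact CD28, called wild type (WT) below, with 3 libraries a group. The age and sex of the mice and the number pooled per library are not given in the sources used here. The labels do not state whether the replicates were separate animals; the p-values thus reflect only how far these libraries scatter, which may be technical. Single reads of 50 nt were taken from total RNA. Expression is given as FPKM, fragments scaled to transcript length and to the size of the library. Read depth could not be worked out from them, so no counting interval is given.

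The sort was checked before anything else. Foxp3 itself was at 81.4, 87.2 and 111 FPKM in the 3 Nrp1-negative Treg libraries and at 0.0669, 0.205 and 21.1 FPKM in the 3 Tconv libraries. Nrp1 was at 0.449, 0.694 and 0.798 FPKM in the Treg libraries and at 0.627, 0.841 and 12.8 FPKM in the Tconv libraries, against 61.5, 74.4 and 58 FPKM in the Nrp1+ Treg libraries of the same genotype. Tconv replicate 3 therefore held Foxp3 and Nrp1 transcripts that the other Tconv libraries did not hold at that level, against its label. In it, 24 of the 27 tested genes of a Treg signature list were higher than in Tconv replicates 1 and 2. Its median position on the way from those replicates to the Nrp1-negative Treg mean was 44.1% over these 27 genes. Single genes lay between -217% and 291%, and the percentages hold for that reference only. Ikzf2 and Lrrc32 had means of 14 and 22.8 FPKM in Nrp1-negative Treg and 104 and 66.1 FPKM in Nrp1+ Treg. The means of Foxp3 and Ctla4 were closer, at 93.1 and 120 FPKM and 98 and 127 FPKM. No position towards the Nrp1+ Treg mean was computed for Tconv replicate 3. The counts and the changes of most genes whose levels are given were therefore also computed without this library. Of the 77 genes named by rule that were called, 72 had the same call without it, and Furin, Gbp2, Ikzf3, Pou2af1 and S100a9 lost theirs. Cd28 was at 54, 87.3 and 86.8 FPKM in the Treg libraries and at 65.7, 117 and 84 FPKM in the Tconv libraries, against 31.5, 59.7 and 53.2 FPKM in WT pTreg and 33.6, 82.8 and 67.3 FPKM in WT Tconv. The transcript level therefore does not check the genotype labels.

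Other traits of the 6 libraries were as follows. The sum of FPKM was 544607 to 650609 per library, and the number of genes reaching 1 FPKM was 10912 to 11532. Mir5105, 1 short locus, took 4.59% to 7.04% of the summed FPKM in the Treg libraries, 11% and 11.6% in Tconv replicates 2 and 1, and 26.9% in Tconv replicate 3. Tconv replicate 1 listed 6292 genes at 0, against 8479 to 9742 in the other libraries. The T cell genes Cd3e and Cd4 were high throughout, at 471, 476 and 484 and 392, 469.7 and 409.7 FPKM for Cd3e and at 164, 183 and 196 and 201, 241 and 197 FPKM for Cd4, Treg before Tconv. Markers of other cell types were not equal between the groups. Of 10 B cell markers only Cd79b and Cd79a could be tested, and their list summed to 6.88, 4.87 and 5.96 FPKM in Treg and 1.95, 3.33 and 4.11 FPKM in Tconv. Cd79b was at 3.91, 3.35 and 2.7 FPKM in Treg and 0.228, 0.986 and 1.56 FPKM in Tconv. It was called higher in Treg (limma, adjusted p = 0.0036, and 0.000879 without Tconv replicate 3), and Cd79a was not called. The 12 myeloid markers summed to 44.5, 24.7 and 70.8 FPKM in Treg and 18.9, 16 and 20.1 FPKM in Tconv, with S100a8, S100a9, Lyz2 and Cd68 carrying most of it. The 5 plasma cell markers summed to 24.7, 24.5 and 26.9 FPKM in Treg and 14.7, 17.7 and 16.6 FPKM in Tconv, nearly all of it Xbp1, which other cells use too. The CD8 T cell markers Cd8a and Cd8b1 summed to 8.05, 9.78 and 6.61 FPKM in Treg and 10.9, 12.9 and 10.8 FPKM in Tconv, with Cd8a under 1 FPKM in every library. Cd8b1, at 7.25, 9.02 and 6.55 FPKM in Treg and 10.5, 12.7 and 10.6 FPKM in Tconv, had an adjusted p of 0.0775 and was called lower after quantile normalization, after rescaling and with the replicate block. The 8 NK cell markers summed to at most 1.69 FPKM in any library and the 7 erythroid and platelet markers to at most 4.74 FPKM. The part that such cells had in the differences below was not tested, and in bulk RNA fewer cells of a type and less RNA per cell cannot be told apart.

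Tests were run on the 11467 genes that reached 1 FPKM in 3 or more of these 6 libraries. Of them, 686 (5.98%) differed between Nrp1-negative Treg and Tconv at an adjusted p under 0.05 (limma on log2(FPKM + 1), two-sided, Benjamini-Hochberg). Of these, 560 (4.88%) were higher in Treg and 126 (1.1%) lower, and the median change over all genes tested was 0.14 on the log2 scale. Here and below, a change is the difference of the group means of log2(FPKM + 1), Treg minus Tconv, which understates the change of low genes, and its error is the standard error. Among the called genes, 318 higher and 73 lower ones changed by at least 1 log2 unit, and 56 higher and 10 lower ones by at least 2. The 3 libraries of each group did not overlap for 682 of the 686; over all genes tested, whatever their p, the Treg libraries all lay above the Tconv libraries for 27.1% and all below for 3.65%. Without Tconv replicate 3, 648 genes were called (5.65%); 540 genes were higher (4.71%) and 108 lower (0.942%), of which 465 and 106 were called with it too, and none was called in opposite directions. Scaling moved the balance of directions: the higher share was 81.6% as deposited, 59.5% of 1244 genes (10.8%) after quantile normalization, whose median change was -0.02, and 66.6% of 757 genes (6.6%) when libraries were rescaled to the same sum without Mir5105, with a median of -0.05. Quantile normalization called 740 higher (6.45%) and 504 lower (4.4%), and rescaling 504 higher (4.4%) and 253 lower (2.21%). With the replicate number within each genotype as a block the fit called 1101 genes (9.6%), 890 higher (7.76%) and 211 lower (1.84%). The count rested partly on single libraries, with 387 genes called without Tconv replicate 1, 434 without Tconv replicate 2 and 432 without Treg replicate 3. There were 390 higher and 106 lower genes that were called as deposited, without Tconv replicate 3 and under both other scalings.

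**Figure D1:**
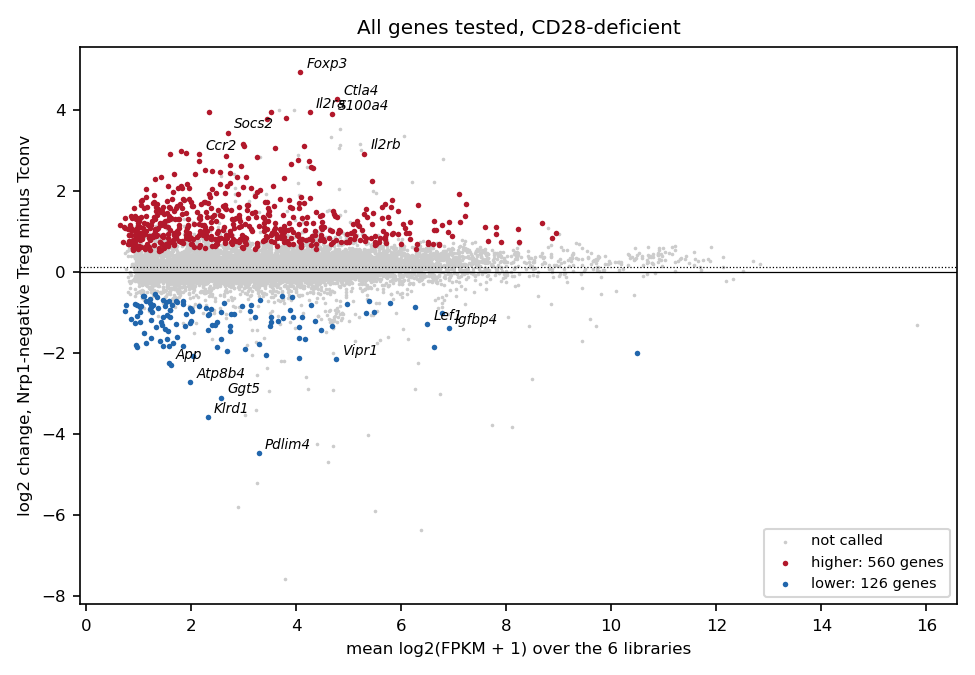
Change of each of the 11467 genes tested (vertical axis, log2, Nrp1-negative Treg minus Tconv, both CD28-deficient) against its mean log2(FPKM + 1) over the 6 libraries (horizontal axis). Red and blue points are the 560 higher and 126 lower genes at an adjusted p under 0.05, and the dotted line is the median change of 0.14; grey points beyond 3 log2 units are microRNA, snoRNA and other short or unnamed loci.

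The 250 bases before the RefSeq start site are shown for 3 of the 15 named genes with the largest rise and 2 of the 15 with the largest fall, so that the sequences beside these changes can be seen. They were chosen after their values were seen, from the 8 higher and 9 lower genes of these with a window in the table. Ctla4 and Il2ra are central Treg surface receptors, Ccr4 is a chemokine receptor, and Pdlim4 and Atp8b4 had the largest falls among the 9 lower genes with a window. Sequences are from RefSeq on GRCm38.p6, on the strand of the gene, 5′ to 3′. The windows are chr1:60908775-60909024 (+ strand) for Ctla4, chr2:11642542-11642791 (+ strand) for Il2ra, chr9:114496545-114496794 (- strand) for Ccr4, chr11:54069018-54069267 (- strand) for Pdlim4 and chr2:126491554-126491803 (- strand) for Atp8b4. Capitals mark matches, on either strand, to the letters TGTTTAC (forkhead), TTCNNNGAA (STAT) or TGANTCA (AP-1), whose only matches in these windows are 1 AP-1 match each in Ccr4 and Atp8b4.
Ctla4: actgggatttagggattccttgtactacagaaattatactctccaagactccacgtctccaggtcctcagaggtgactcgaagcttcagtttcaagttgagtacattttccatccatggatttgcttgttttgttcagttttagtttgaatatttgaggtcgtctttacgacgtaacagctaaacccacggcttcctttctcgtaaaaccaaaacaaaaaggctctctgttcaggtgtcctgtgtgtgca
Il2ra: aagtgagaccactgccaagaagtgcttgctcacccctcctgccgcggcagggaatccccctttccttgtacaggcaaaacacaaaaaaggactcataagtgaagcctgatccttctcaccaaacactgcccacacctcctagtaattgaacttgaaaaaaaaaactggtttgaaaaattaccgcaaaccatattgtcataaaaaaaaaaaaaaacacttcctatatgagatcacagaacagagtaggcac
Ccr4: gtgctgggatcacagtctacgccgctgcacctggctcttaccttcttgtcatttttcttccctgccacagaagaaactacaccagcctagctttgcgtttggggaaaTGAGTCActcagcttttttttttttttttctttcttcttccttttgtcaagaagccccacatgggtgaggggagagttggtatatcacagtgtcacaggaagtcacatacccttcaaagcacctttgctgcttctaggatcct
Pdlim4: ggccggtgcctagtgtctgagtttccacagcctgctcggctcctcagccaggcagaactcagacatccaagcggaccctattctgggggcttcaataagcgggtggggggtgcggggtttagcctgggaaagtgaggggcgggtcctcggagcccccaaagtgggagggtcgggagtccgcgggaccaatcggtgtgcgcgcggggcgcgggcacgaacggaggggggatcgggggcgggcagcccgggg
Atp8b4: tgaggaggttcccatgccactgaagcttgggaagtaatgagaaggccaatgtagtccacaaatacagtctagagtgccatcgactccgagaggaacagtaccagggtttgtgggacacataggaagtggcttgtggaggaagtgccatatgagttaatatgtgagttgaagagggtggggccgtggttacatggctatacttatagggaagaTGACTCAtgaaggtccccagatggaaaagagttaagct
Over the 27025 genes with a promoter in the table, windows of this length held the forkhead letters for 3.54%, the STAT letters for 8.13% and the AP-1 letters for 7.82%. Of the 17 genes with a window, the letters of any of the 3 motifs stood in 3: Ccr4 and Foxp3, which rose, and Atp8b4, which fell. The match of Foxp3 was to the STAT letters, in 1 of its windows, and a match is a description of the letters only. A count of motifs over the called genes is void, since only 365 of the 560 higher and 84 of the 126 lower genes had a promoter in the table, under 80%.

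Genes of Treg identity led the rise. Of the 27 tested members of the Treg signature list, 18 were higher and none lower (median change 1.53, against 0.14 over all genes); without Tconv replicate 3 it was 24 higher and none lower, with a median of 2.22. Ctla4, the inhibitory receptor that competes with CD28 for CD80 and CD86, was at 106, 124 and 130.5 FPKM in Treg and at 1.76, 2.05 and 27.3 FPKM in Tconv. Its change was 4.28 ± 0.59 (adjusted p = 0.000183), and 5.38 ± 0.28 without Tconv replicate 3 (adjusted p = 9.00e-09). Tconv replicate 3 lay between the groups, and the groups did not overlap. Foxp3, used for the sort, changed by 4.93 ± 0.73 (adjusted p = 0.000396), and by 6.36 ± 0.25 without that library. Lrrc32, which encodes GARP and holds latent TGF-beta on the Treg surface, was at 22, 20.1 and 26.2 FPKM in Treg and 0.038, 0.0113 and 17.8 FPKM in Tconv, a change of 3.13 ± 0.73 (adjusted p = 0.013). Of its Tconv libraries 2 were near 0 and the third was just under the Treg range. The change was 4.53 ± 0.28 without Tconv replicate 3, and the call was lost without Tconv replicate 1, Tconv replicate 2 or Treg replicate 3 (adjusted p = 0.0955, 0.0893 and 0.0556). The folate receptor family gene Folr4 (259, 256 and 293 FPKM in Treg, 48.7, 49.9 and 138 FPKM in Tconv), the actin-capping gene Capg and the orphan receptor gene Gpr83 also rose, by 1.94 ± 0.31, 2.26 ± 0.29 and 2.03 ± 0.42.

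Several Treg genes did not pass the test in the fit of all libraries and passed in the fit without Tconv replicate 3. Ikzf2, which encodes Helios, was at 9.97, 15 and 16.9 FPKM in Treg and at 0.278, 0.521 and 20.5 FPKM in Tconv, so that Tconv replicate 3 was above every Treg library. The change of 2.08 ± 0.74 had an adjusted p of 0.131; without that library it was 3.39 ± 0.42 (adjusted p = 5.99e-05), and with the replicate block the adjusted p was 0.0223. The Nrp1+ Treg libraries held 96.5, 120.2 and 96.1 FPKM, above every Nrp1-negative library. The difference of Nrp1-negative from Nrp1+ Treg of -2.84 ± 0.74 had an adjusted p of 0.0595, or 0.0246 after quantile normalization. In the fit without Tconv replicate 3 the difference was again -2.84, with an error of 0.37 and an adjusted p of 0.000242. Tconv replicate 3 is not part of that difference, but all 18 libraries share 1 estimate of the spread. Tigit, an inhibitory receptor, stood at 3.21, 2.63 and 4.0 FPKM in Treg and 0.726, 1.0 and 7.9 FPKM in Tconv. Its adjusted p moved from 0.72 to 0.00173 without that library. Ikzf4 (Eos), Tnfrsf9, Cd83 and Swap70 followed the same course, with adjusted p values of 0.109, 0.133, 0.179 and 0.126 in the fit of all libraries and 0.00134, 0.000177, 2.61e-05 and 0.00173 without it. With the replicate block and all libraries Ikzf4 (0.0106) and Swap70 (0.0359) passed too, and Tnfrsf9 (0.0502) and Cd83 (0.0693) did not.

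**Figure D2:**
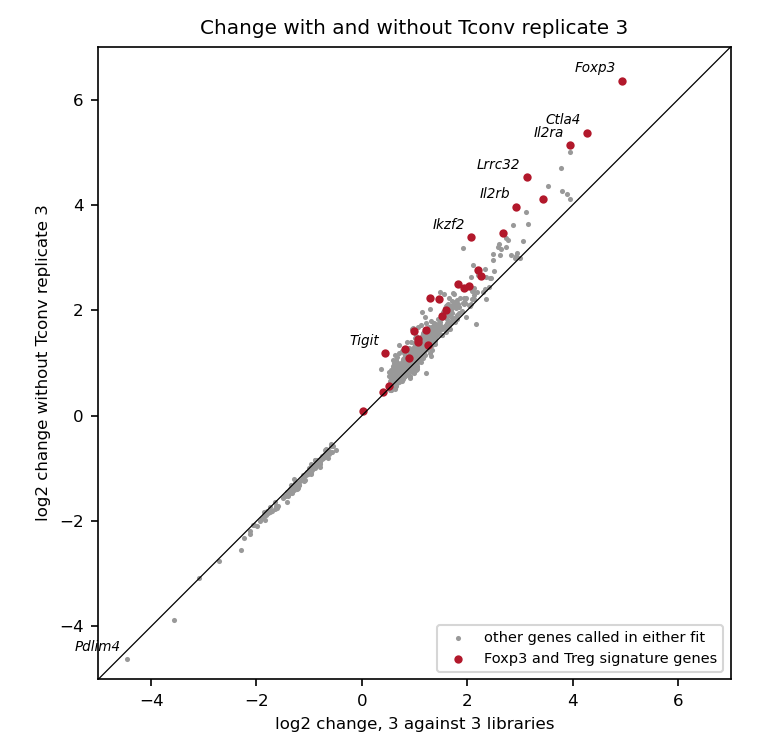
Change of genes called with or without Tconv replicate 3, from all 6 libraries (horizontal axis, log2) and without that library (vertical axis, log2). Points on the diagonal are unaffected by it; Foxp3 and the 27 Treg signature genes (red) lie on or above the diagonal, as for Ctla4 with 4.28 and 5.38.

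Interleukin-2 reaches Treg through the high-affinity receptor made of Il2ra, Il2rb and Il2rg and signals through JAK kinases and STAT5. Of 20 tested genes of this axis, 10 were higher and none lower (median 0.86), and 10 and none without Tconv replicate 3. Quantile normalization and rescaling each called 10 higher and 2 lower (Il7r and the kinase gene Pim2), and the replicate block 11 and 1 (Il7r). Il2ra, which encodes CD25, was at 61.5, 77.6 and 85.1 FPKM in Treg against 1.05, 1.21 and 24 FPKM in Tconv. The change of 3.95 ± 0.65 (adjusted p = 0.000843) grew to 5.14 ± 0.33 without Tconv replicate 3. The beta chain gene Il2rb was at 88.3, 117 and 120.2 FPKM in Treg and at 5.11, 6.86 and 59.5 FPKM in Tconv (change 2.93 ± 0.56, adjusted p = 0.00325, and 3.97 ± 0.27 without Tconv replicate 3). For both chains Tconv replicate 3 was the highest Tconv library and still below every Treg library. The STAT5-induced feedback genes rose as well. Socs2 was at 18.3, 20.3 and 22.9 FPKM in Treg and 0.212, 0.252 and 3.97 FPKM in Tconv, a change of 3.45 ± 0.41 (adjusted p = 5.05e-05), or 4.12 ± 0.28 without Tconv replicate 3. Cish was at 46, 40.2 and 49.9 FPKM and 5.6, 6.07 and 20.7 FPKM, a change of 2.20 ± 0.34 (adjusted p = 0.000579), or 2.76 ± 0.24 without Tconv replicate 3. Smaller rises were those of Socs1, Socs3, the kinase genes Jak3 and Pim1, Il15ra and the lymphotoxin gene Lta, between 0.95 and 1.48. Il7r, the IL-7 receptor chain that resting T cells depend on, was at 66.9, 95.4 and 86.7 FPKM in Treg and 148, 229 and 145 FPKM in Tconv. The Treg libraries were all lower, and the change of -1.04 ± 0.33 had an adjusted p of 0.078, or 0.00359 with the replicate block.

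**Figure D3:**
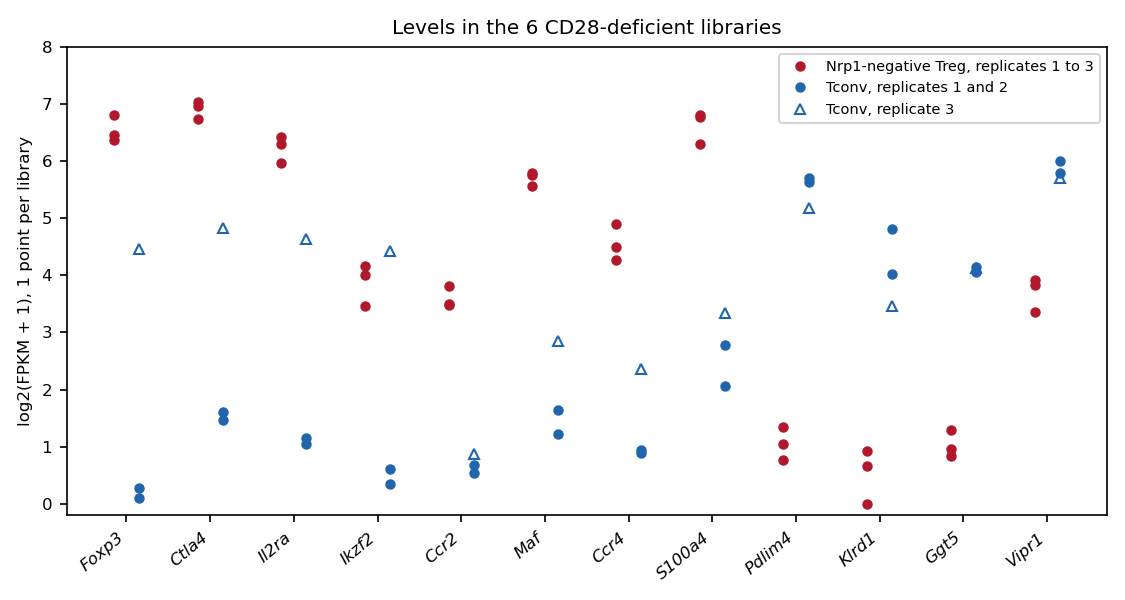
Level of 12 genes, as log2(FPKM + 1), in each of the 6 libraries: Nrp1-negative Treg in red, Tconv replicates 1 and 2 as filled blue points and Tconv replicate 3 as an open triangle. For Foxp3, Ctla4 and Il2ra the triangle lies between the groups, for Ikzf2 above the Treg points, and for Ccr2, S100a4, Pdlim4, Ggt5 and Vipr1 near its own group.

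Among 33 tested lineage transcription factors, 5 were higher and 1 lower, and 6 and 1 without Tconv replicate 3; quantile normalization called 6 higher and 4 lower, and the replicate block 10 and 4. Of all genes tested, 4.88% were higher and 1.1% lower, 6.45% and 4.4% after quantile normalization and 7.76% and 1.84% with the replicate block. Maf, a factor for Th17, follicular and IL-10-producing T cells, was at 46.3, 53.1 and 54.8 FPKM in Treg and 1.35, 2.14 and 6.18 FPKM in Tconv (change 3.80 ± 0.38, adjusted p = 1.08e-05, and 4.27 ± 0.35 without Tconv replicate 3). Ahr, the aryl hydrocarbon receptor, was at 2.55, 3.75 and 4.35 FPKM and 0.244, 0.493 and 1.18 FPKM (change 1.49 ± 0.21, adjusted p = 0.00027, and 1.72 ± 0.21 without Tconv replicate 3). For both genes the groups were apart with Tconv replicate 3 as the highest Tconv library. Irf4, which drives effector Treg differentiation, rose by 1.5 ± 0.29 (adjusted p = 0.00364). Ikzf3, which encodes Aiolos, was at 50.4, 75.7 and 83.2 FPKM in Treg and 13.8, 30.7 and 26.1 FPKM in Tconv. Its change of 1.57 ± 0.42 had an adjusted p of 0.0314, but the call was lost without Tconv replicate 1 (0.193), Tconv replicate 3 (0.0501), Treg replicate 2 (0.108) or Treg replicate 3 (0.136).

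Genes of helper T cell lineages were present in these Treg to different extents. The counts below stand beside 4.88% higher and 1.1% lower over all genes tested, or 6.45% and 4.4% after quantile normalization. Of 8 tested Th17 genes 5 were higher and none lower, also without Tconv replicate 3 (median 1.78, or 1.9 without it). Among them were Ahr, the chemokine receptor gene Ccr6 and the paired membrane protein genes Tmem176a and Tmem176b. Ccr6 was at 7.26, 9.75 and 16.1 FPKM in Treg and 0, 0.55 and 2.26 FPKM in Tconv (change 2.74 ± 0.45, adjusted p = 0.000817, and 3.21 ± 0.44 without Tconv replicate 3). Tmem176b was at 13.5, 6.94 and 9.85 FPKM in Treg and 1.5, 1.61 and 1.64 FPKM in Tconv (change 2.06 ± 0.24, adjusted p = 5.11e-05, and 2.08 ± 0.28 without Tconv replicate 3), and Tmem176a, which was also on the list of NKT and gamma-delta T cell markers, changed by 2.07 ± 0.26. Of the other markers of those cells, Zbtb16, Sox13 and Blk stayed at or below 0.26 FPKM in the 6 libraries, while Cd1d1, which encodes the CD1d molecule that presents lipids to NKT cells, was at 17.4, 17.1 and 19.9 FPKM in Treg and 16.5, 18.7 and 18.5 FPKM in Tconv, a change of 0.02 ± 0.21 (adjusted p = 0.994). Of 13 Th1 genes 3 were higher and none lower, 4 and none without Tconv replicate 3, and 6 and 2 after quantile normalization. These were the chemokine receptor gene Cxcr3 (1.66 ± 0.35), the IL-12 and IL-23 receptor chain gene Il12rb1 (2.49 ± 0.33) and Hopx (1.71 ± 0.30), a small homeobox protein gene. The call of Cxcr3 was lost without Tconv replicate 1 (adjusted p = 0.0514). Of 5 Th2 genes only Ccr4 was higher and none was lower, and of 15 follicular helper genes 5 were higher and 1 lower, or 7 and none without Tconv replicate 3. Cxcr5, the receptor that leads T cells into B cell follicles, was at 14.2, 16.2 and 16.4 FPKM in Treg and 0.623, 1.13 and 4.44 FPKM in Tconv (change 2.64 ± 0.37, adjusted p = 0.00023, and 3.16 ± 0.31 without Tconv replicate 3). Asb2, a ubiquitin ligase subunit gene, rose by 2.09 ± 0.26. The lower gene of that list was Pou2af1, a co-activator gene also used by B cells, at 1.79, 2.3 and 2.97 FPKM in Treg and 4.16, 5.9 and 4.91 FPKM in Tconv, whose call (adjusted p = 0.0497) was lost without any 1 of the 6 libraries (0.0608 to 0.208).

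Receptors for migration rose in 9 of 23 tested members of the chemokine receptor and homing list, with none lower, and in 9 without Tconv replicate 3. Ccr4 was at 18.2, 21.7 and 28.8 FPKM in Treg and 0.846, 0.925 and 4.16 FPKM in Tconv (change 3.16 ± 0.40, adjusted p = 8.85e-05, and 3.64 ± 0.37 without Tconv replicate 3). Ccr2, a receptor of inflammatory homing, was at 10.4, 10.2 and 13.1 FPKM in Treg and 0.446, 0.606 and 0.826 FPKM in Tconv (change 2.91 ± 0.29, adjusted p = 1.08e-05). All 3 Tconv libraries were under 1 FPKM for Ccr2, so this change was almost the same without replicate 3, at 3.0 ± 0.33. The large intestine homing receptor gene Gpr15 rose by 2.13 ± 0.34, and Cxcr6 and the integrin gene Itgae by 0.89 and 1.22. Ccr7, a receptor for lymph node entry, did not pass the test (adjusted p = 0.346). It was at 122, 149 and 151 FPKM in Treg and 181, 240.2 and 170.2 FPKM in Tconv, with every Treg library lower, and quantile normalization called it lower.

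Costimulatory and inhibitory receptors were the next group. Of 21 tested members of the TNF receptor superfamily list, which includes ligands and Traf1, 7 were higher and none lower, and 8 and none without Tconv replicate 3. Tnfrsf18, which encodes GITR, was at 105, 82.8 and 102 FPKM in Treg and at 23.4, 22.5 and 55.4 FPKM in Tconv (change 1.60 ± 0.28, adjusted p = 0.00134). Tnfrsf4, which encodes OX40, was at 33.8, 31.9 and 40.8 FPKM and 5.22, 5.55 and 25.2 FPKM (change 1.83 ± 0.38, adjusted p = 0.00543). Tconv replicate 3 was well above the other Tconv libraries for both genes, and without it the changes were 2.02 ± 0.22 and 2.51 ± 0.20. Tnfrsf25 (DR3), Tnfrsf1b (TNFR2) and the ligand genes Tnfsf11 (RANKL) and Tnfsf14 (LIGHT) rose by 1.36, 1.06, 1.59 and 1.32. In the CD28 and checkpoint receptor list, 5 of 17 were higher and 1 lower, and 7 and 1 without Tconv replicate 3; only 3 were called without Tconv replicate 1. Icos, the CD28 relative that supports follicular and effector cells, was at 31.5, 31.9 and 38.3 FPKM in Treg and 11.3, 14.3 and 15.5 FPKM in Tconv (change 1.25 ± 0.22, adjusted p = 0.00202, and 1.34 ± 0.26 without Tconv replicate 3). Lag3, an inhibitory receptor for MHC class II, was at 5.7, 6.85 and 6.33 FPKM in Treg and 0.352, 0.883 and 2.48 FPKM in Tconv (change 1.81 ± 0.28, adjusted p = 0.000528, and 2.19 ± 0.24 without Tconv replicate 3). Cd200 and Cd86 rose by 1.15 and 1.14, and the collagen receptor gene Lair1 fell by 0.57. Cd200 lost its call without Tconv replicate 1 (adjusted p = 0.0507), and Lair1 without any of Tconv replicates 1 and 2 and Treg replicates 1 to 3 (0.0831 to 0.226). Pdcd1, which encodes PD-1, was at 4.12, 4.31 and 5.2 FPKM in Treg and 0.96, 1.41 and 7.35 FPKM in Tconv, and passed only without Tconv replicate 3 (adjusted p = 0.436 and 0.00719).

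Molecules with which Treg suppress other cells moved in 7 of 14 tested members, 6 higher and 1 lower, and in 9 higher and 1 lower without Tconv replicate 3. Nt5e (CD73) and Entpd1 (CD39) are the enzymes that make adenosine from extracellular ATP. Nt5e was at 29.9, 40.1 and 41.9 FPKM in Treg and 1.8, 3.17 and 16.7 FPKM in Tconv (change 2.68 ± 0.47, adjusted p = 0.00161, and 3.47 ± 0.31 without Tconv replicate 3). Entpd1 was at 1.64, 1.6 and 2.19 FPKM and 0.0913, 0.0348 and 1.08 FPKM (change 1.07 ± 0.25, adjusted p = 0.0124, and 1.40 ± 0.22 without Tconv replicate 3). The groups did not overlap for either gene, and Tconv replicate 3 was the nearest to Treg. Prf1, which encodes the pore-forming protein perforin, went the other way, with 1.8, 2.43 and 2.93 FPKM in Treg and 6.5, 9.27 and 6.32 FPKM in Tconv (change -1.30 ± 0.25, adjusted p = 0.00321, and -1.39 ± 0.28 without Tconv replicate 3). Il10 did not reach the filter of 1 FPKM and was at 0.103, 0.713 and 0.821 FPKM in Treg and at 0, 0 and 0.0633 FPKM in Tconv. Among 19 tested effector Treg genes 8 were higher and none lower, and 11 and none without Tconv replicate 3; the lists share members such as Lag3, Maf and Icos. In the TGF-beta list 2 of 15 were higher and 1 lower, or 1 and 1 without Tconv replicate 3 and 1 in all without Tconv replicate 1 or 2 or Treg replicate 3. Of all genes tested, 4.88% were higher and 1.1% lower as deposited. These shares were 4.4% and 2.21% after rescaling, 6.45% and 4.4% after quantile normalization and 7.76% and 1.84% with the replicate block. In this list rescaling turned the balance, with 1 higher and 3 lower (Tgfbr2, Tgfbr3 and Smad7), while quantile normalization and the replicate block each called 3 higher and 2 lower. The 3 called as deposited were Lrrc32, the protease gene Furin, whose change of 0.65 ± 0.18 lost its call without any 1 of the 6 libraries (adjusted p from 0.0738 to 0.205), and Tgfbr3.

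NF-kB is a family of transcription factors that TNF receptor family members and antigen receptors switch on. Of the 20 tested subunits and targets, 10 were higher and none lower (median 0.88), and 9 and none without Tconv replicate 3, or 6 in all without Tconv replicate 1. The adaptor gene Traf1 was at 105, 93.4 and 108 FPKM in Treg and 29.3, 33.9 and 43.8 FPKM in Tconv (change 1.51 ± 0.22, adjusted p = 0.000406, and 1.66 ± 0.25 without Tconv replicate 3). The adhesion molecule gene Icam1 was at 19, 14.3 and 18.4 FPKM and 5.53, 4.45 and 7.18 FPKM (change 1.45 ± 0.23, adjusted p = 0.000579, and 1.60 ± 0.25 without Tconv replicate 3). Bcl3, a nuclear partner of NF-kB, was at 29, 20.4 and 23.5 FPKM and 11.5, 7.52 and 11.3 FPKM (change 1.20 ± 0.21, adjusted p = 0.00149, and 1.28 ± 0.24 without Tconv replicate 3). For these 3 genes every Treg library was above every Tconv library, replicate 3 included. The subunit genes Nfkb2 and Relb rose by 1.03 and 1.11, and the inhibitor genes Nfkbia, Nfkbie and Tnip1 by 1.11, 0.85 and 1.01; Nfkbia and Birc3 lost their calls without Tconv replicate 3 (adjusted p = 0.076 and 0.0732). In the BCL2 family, 3 of 16 were higher and none lower, 4 and none without Tconv replicate 3, 1 without Tconv replicate 1, and 7 and none with the replicate block. The share called higher over all genes tested was 4.88%, and 7.76% with the replicate block. Bcl2a1b, a survival gene induced by NF-kB and a near-identical copy of its neighbours, so that its reads cannot be assigned with certainty, rose by 1.22 ± 0.26 (adjusted p = 0.00729, and 0.0611 without Tconv replicate 1). Pmaip1, which encodes the death-promoting protein Noxa, was at 2.58, 3.84 and 3.1 FPKM in Treg and 0.386, 0.405 and 0.957 FPKM in Tconv (change 1.41 ± 0.23, adjusted p = 0.000783, and 1.57 ± 0.25 without Tconv replicate 3). Bcl2 itself was at 36.6, 50.2 and 47.4 FPKM in Treg and 19.2, 30.1 and 29.6 FPKM in Tconv. Every Treg library was above every Tconv library, as for 27.1% of all genes tested. The change of Bcl2 of 0.76 ± 0.31 had an adjusted p of 0.2, or 0.00772 with the replicate block.

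The S100 calcium-binding proteins, galectins and annexins are abundant in antigen-experienced T cells. Of 19 tested, 8 were higher and none lower (median 0.82), and 8 and none without Tconv replicate 3. S100a4, at chr3:90603771-90606045, was at 112, 78 and 108 FPKM in Treg and 5.89, 3.19 and 9.14 FPKM in Tconv (change 3.90 ± 0.39, adjusted p = 1.08e-05). S100a6, its neighbour on chromosome 3, was at 45.7, 27.8 and 31 FPKM and 3.46, 1.8 and 4.86 FPKM (change 3.07 ± 0.38, adjusted p = 7.28e-05). All 3 Tconv libraries were under 10 FPKM for both genes, and without replicate 3 the changes were 4.21 ± 0.42 and 3.31 ± 0.41. Ahnak, a very large scaffold protein gene, was at 36, 45.4 and 67.2 FPKM in Treg and 2.42, 5.5 and 16.8 FPKM in Tconv (change 2.73 ± 0.55, adjusted p = 0.00469, and 3.37 ± 0.52 without Tconv replicate 3). S100a10, S100a11 and the galectin gene Lgals1 rose by 1.11, 1.18 and 1.18. S100a9, a granulocyte gene on the myeloid list, was at 16, 4.72 and 24.1 FPKM in Treg and 2.4, 1.45 and 2.52 FPKM in Tconv. It is itself part of the myeloid marker sum given above, and its call (adjusted p = 0.0379) was lost without Tconv replicate 3 (0.0673) and without Tconv replicate 1 or 2 or Treg replicate 1 or 3 (0.0981, 0.145, 0.136 and 0.205).

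Other genes with large rises were outside these lists or stood alone in them. Coro2a, an actin-binding protein gene, was at 39.7, 47.8 and 45.8 FPKM in Treg and 0.328, 0.507 and 11.6 FPKM in Tconv (change 3.95 ± 0.58, adjusted p = 0.000334, and 5.0 ± 0.30 without Tconv replicate 3). Rgs1, which shortens chemokine receptor signals, was at 46.2, 56.7 and 52.5 FPKM and 2.62, 2.61 and 15.7 FPKM (change 3.13 ± 0.47, adjusted p = 0.000452, and 3.86 ± 0.35 without Tconv replicate 3). Both had Tconv replicate 3 above the other Tconv libraries and below Treg. Rnase4, a secreted ribonuclease gene, was at 8.81, 8.8 and 10.5 FPKM in Treg and 0.151, 0.282 and 0.625 FPKM in Tconv (change 2.95 ± 0.23, adjusted p = 1.44e-06, and 3.09 ± 0.26 without Tconv replicate 3). Gbp1, an interferon-inducible GTPase gene given no position here, was at 7.11, 7.62 and 7.36 FPKM and 0.0186, 0.0163 and 0.304 FPKM (change 2.92 ± 0.28, adjusted p = 9.35e-06, and 3.04 ± 0.32 without Tconv replicate 3). Tconv replicate 3 stayed under 1 FPKM for both. In the type I interferon list 4 of 25 were higher and none lower, 3 and none without Tconv replicate 3, and 10 and none after quantile normalization or 9 and none with the replicate block, while 1 was called without Tconv replicate 1; Gbp3 led it with 2.63 ± 0.32. The other calls of that list were not firm, since Isg20, Mx1 and Gbp2 each lost theirs without Tconv replicate 1 (adjusted p = 0.0739, 0.213 and 0.24). Gimap7, of the GIMAP family of lymphocyte GTPases, was higher by 1.46 ± 0.22, 1 of 8 tested members with none lower. The share over all genes tested was 4.88% higher and 1.1% lower.

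**Figure D4:**
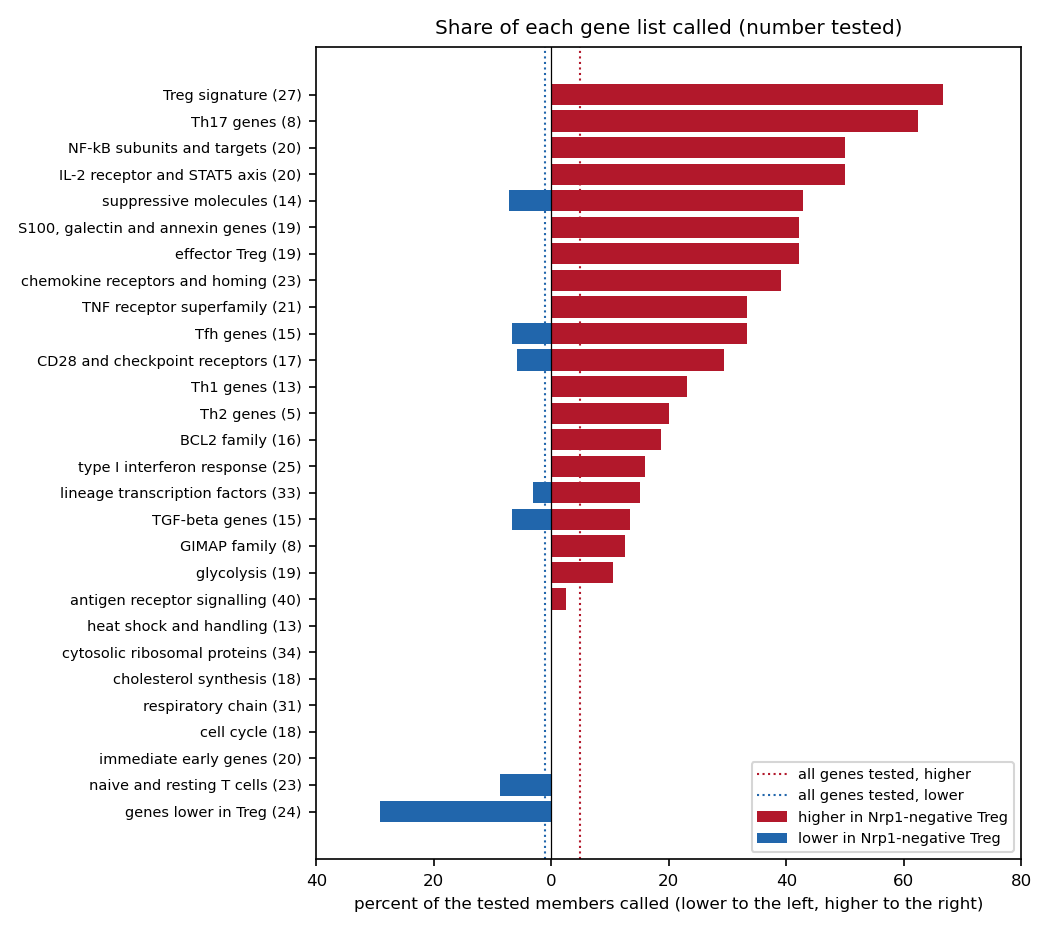
Percent of the tested members of each of 28 gene lists called higher (red, to the right) or lower (blue, to the left) in Nrp1-negative Treg than in Tconv, with the number tested in brackets. Dotted lines mark the 4.88% and 1.1% of all 11467 genes. The Treg signature reaches furthest to the right with 18 of 27 and the genes lower in Treg furthest to the left with 7 of 24. The lists were drawn up with earlier results of these data known.

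Fewer genes were lower in Nrp1-negative Treg. Pdlim4, a PDZ and LIM domain protein gene at chr11:54054928-54069014, had the largest fall of the genes named here, with 1.53, 0.709 and 1.08 FPKM in Treg and 51.5, 48.9 and 35.4 FPKM in Tconv (change -4.46 ± 0.56, adjusted p = 8.32e-05). Klrd1, which encodes the CD94 chain of NK receptors, was at 0.892, 0.589 and 0 FPKM in Treg and 15.3, 27 and 10.1 FPKM in Tconv (change -3.57 ± 0.38, adjusted p = 2.26e-05). Ggt5, a leukotriene- and glutathione-cleaving enzyme gene, was at 0.781, 0.935 and 1.44 FPKM and 15.6, 16.8 and 16.5 FPKM (change -3.09 ± 0.42, adjusted p = 0.000159). Tconv replicate 3 sat with the other Tconv libraries for Ggt5 and was the lowest of them for Pdlim4 and Klrd1, and no group overlapped the other. Without it the changes were -4.62 ± 0.64, -3.89 ± 0.40 and -3.08 ± 0.48. Atp8b4, a phospholipid-flipping ATPase gene, was at 0.38, 0.654 and 0.583 FPKM in Treg and 6.61, 13.3 and 8.49 FPKM in Tconv (change -2.72 ± 0.37, adjusted p = 0.000175, and -2.76 ± 0.42 without Tconv replicate 3). App, the amyloid precursor protein gene, was at 0.276, 0.39 and 0.474 FPKM and 5.47, 6.37 and 4.81 FPKM (change -2.24 ± 0.20, adjusted p = 4.71e-06, and -2.33 ± 0.23 without Tconv replicate 3). Vipr1, a receptor for vasoactive intestinal peptide, was at 9.22, 13.2 and 14.1 FPKM in Treg and 54.5, 62.9 and 50.9 FPKM in Tconv (change -2.13 ± 0.36, adjusted p = 0.00128, and -2.20 ± 0.42 without Tconv replicate 3). For these 3 genes every Treg library was below every Tconv library. The remaining genes with the largest falls were Pde3b, Myo10, Appl2, Acvrl1, Hs3st3b1, Lypd6b, Epas1, Nacc2 and Il1rl2, between -2.12 and -1.81. They include a cyclic nucleotide phosphodiesterase (Pde3b), a BMP receptor (Acvrl1), the hypoxia factor HIF-2-alpha (Epas1) and the IL-36 receptor (Il1rl2). The call of Pde3b was lost without Tconv replicate 2, Treg replicate 1 or Treg replicate 3 (adjusted p = 0.083, 0.0599 and 0.0535).

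The list named genes lower in Treg was drawn up with earlier results of these data known, so its direction here is no independent evidence. It had 7 of 24 tested members lower and none higher (median -0.87), and 7 and none without Tconv replicate 3. Quantile normalization called 17 of them lower, rescaling 13 and the replicate block 16; without Tconv replicate 2, Treg replicate 1 or Treg replicate 3 only 3, 3 and 4 were called. Lef1, a Wnt pathway factor of naive T cells, was at 42.6, 64.8 and 66 FPKM in Treg and 116, 177 and 130.1 FPKM in Tconv (change -1.28 ± 0.29, adjusted p = 0.0115, or 0.0749 without Tconv replicate 2 and 0.0713 without Treg replicate 1). Igfbp4, a secreted binder of insulin-like growth factors found in naive T cells, was at 75.9, 71.5 and 73.1 FPKM and 208, 202 and 167 FPKM (change -1.37 ± 0.35, adjusted p = 0.0238, and -1.47 ± 0.40 without Tconv replicate 3). Igfbp4 passed without Tconv replicate 3 (adjusted p = 0.0376) and not without any other library of the 6 (0.063 to 0.0986). Tgfbr3, the TGF-beta co-receptor betaglycan, was at 3.04, 4.96 and 5.06 FPKM in Treg and 13.1, 24 and 15.9 FPKM in Tconv (change -1.78 ± 0.36, adjusted p = 0.00494, and -1.83 ± 0.41 without Tconv replicate 3). Cd40lg, the helper ligand CD40L, fell by 0.97. Dapl1, a gene of naive T cells, was at 20.6, 33 and 21.1 FPKM in Treg and 86.5, 102 and 67.6 FPKM in Tconv, with the groups well apart. Its change of -1.75 ± 0.53 had an adjusted p of 0.0622, or 0.0211 with the replicate block and 0.0322 after quantile normalization. Of 23 naive and resting T cell genes only Lef1 and Igfbp4 were lower and none was higher, also without Tconv replicate 3; quantile normalization called 8 lower, rescaling 7, and the replicate block 6 lower and 1 higher, while none was called without Tconv replicate 2 or without Treg replicate 1. Tcf7, which encodes TCF-1, a factor of naive and memory T cells, was at 289, 383 and 405 FPKM in Treg and 579, 697 and 554 FPKM in Tconv. The groups did not overlap, and the change of -0.77 ± 0.22 had an adjusted p of 0.0521, or 0.0295 with the replicate block.

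Against 5.98% of all genes, none of the tested members passed in the lists of cell cycle (18), immediate early (20), respiratory chain (31), cholesterol synthesis (18), cytosolic ribosomal protein (34) or heat shock (13) genes, and this also held without Tconv replicate 3. The replicate block called 1 immediate early, 1 respiratory chain and 2 heat shock genes, and quantile normalization 1 cell cycle, 1 cholesterol and 4 ribosomal protein genes. With the replicate block and only the compared groups in the model, 11 immediate early, 13 respiratory chain and 16 ribosomal protein genes were called, 9, 13 and 16 of them higher. That fit called 2857 of all 11467 genes tested, 2443 of them higher. Without CD28-deficient Tconv replicate 3, WT pTreg replicate 1 and WT Tconv replicate 1 together, 5, 9 and 5 were called, 4, 9 and 5 of them higher. This second fit called 1989 of all 11467 genes tested, 1754 of them higher. Mki67, the proliferation marker, was at 1.26, 1.24 and 1.51 FPKM in Treg and 0.584, 0.946 and 1.08 FPKM in Tconv. Every Treg library was above every Tconv library for it, as for 27.1% of all genes tested, and the change of 0.33 ± 0.15 did not pass (adjusted p = 0.265). Among 40 antigen receptor signalling genes only Sla, an adaptor that dampens the receptor, was higher, by 0.83 ± 0.18 (adjusted p = 0.00964, or 0.0767 without Tconv replicate 1 and 0.0671 without Treg replicate 3), and quantile normalization called 3 higher and 8 lower. Of 19 glycolysis genes, the glucose transporter gene Slc2a3 was higher by 1.39 ± 0.20 (adjusted p = 0.000348), with 30.5, 34.1 and 39 FPKM in Treg and 9.92, 13.5 and 14.4 FPKM in Tconv. The lactate transporter gene Slc16a3 was higher by 0.62 ± 0.18 (adjusted p = 0.0457) and lost its call without Tconv replicate 1 or 2 or without any 1 Treg library (0.1 to 0.19).

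The same comparison in mice with intact CD28, from 6 other libraries, showed how far these differences were shared. Of these libraries WT pTreg replicate 1 and WT Tconv replicate 1 stood apart, with Mir5105 at 20.8% and 19.4% of the summed FPKM, against 2.98% to 10.3% in the other 4, and the part of this in the differences was not tested. There 477 genes were called (4.16%), of which 209 were higher (1.82%) and 268 lower (2.34%) in Nrp1-negative Treg than in Tconv, with a median change of -0.22 over all genes. Of the higher genes 180 were common to both genotypes, which is 32.1% of the CD28-deficient and 86.1% of the wild-type list. Of the lower genes 114 were common, 90.5% and 42.5% of the lists. Wild type was tested on the same 11467 genes, chosen by their level in the 6 CD28-deficient libraries. Genes that failed that filter, Il10 among them, could not enter the wild-type lists. The shares here and below hold for the tested genes only. With all libraries no gene was called in opposite directions, and 537 of the 560 genes higher without CD28 had a positive change in wild type. The median change of these 560 was 1.06 in the mutant, which chose them, and 0.60 in wild type; that of the 126 lower genes was -1.1 and -1.39. The CD28-deficient calls were also made without Tconv replicate 3. The wild-type calls set beside them were still those of the fit of all libraries, whose spread includes that library. So counted, 199 higher genes were common (36.9% and 95.2% of the lists) and 99 lower ones (91.7% and 36.9%). Only 1 gene was then called in opposite directions. It was Anxa2, an annexin gene, at 7.38, 7.44 and 8.74 FPKM in CD28-deficient Treg and 2.45, 2.37 and 6.57 FPKM in CD28-deficient Tconv. Anxa2 changed by 1.37 ± 0.26 in the mutant without Tconv replicate 3 (adjusted p = 0.00274) and by -1.14 ± 0.29 in wild type (adjusted p = 0.0336). Wild type called 21 Treg signature genes higher, 5 IL-2 and STAT5 axis genes higher and 2 lower, 1 NF-kB gene higher and 1 gene each way among the S100, galectin and annexin genes, against 18, 10 and none, 10, and 8 and none in the mutant. Of all genes tested, 1.82% were called higher in wild type and 4.88% in the mutant. In the same order, the median change of each list in the mutant minus that in wild type was -0.17, 0.37, 0.51 and 0.81. For all genes tested this median was 0.37. In the main fit, of all libraries and without a block, the test of the difference itself called no member of any of these lists. Without CD28-deficient Tconv replicate 3 that test passed for S100a4, S100a6 and Anxa2 (adjusted p = 0.0165, 0.0236 and 0.00633).

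**Figure D5:**
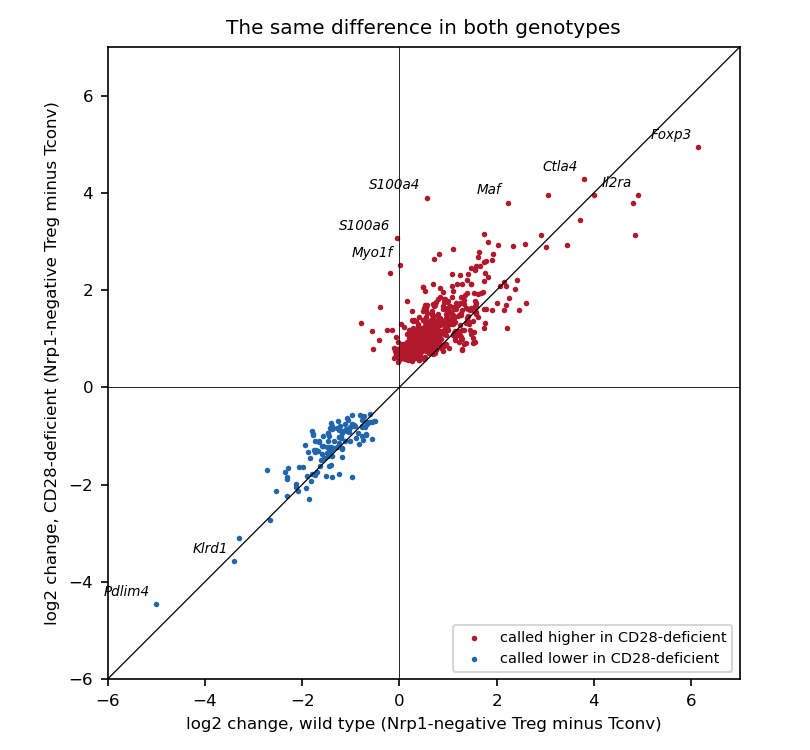
Change of the 686 called genes in CD28-deficient cells (vertical axis, log2, Nrp1-negative Treg minus Tconv) against the same difference in wild type (horizontal axis, log2), with the line of equal change. Myo1f, S100a4 and S100a6 lie far above the line, with changes of 2.52, 3.90 and 3.07 in the mutant and 0.00, 0.56 and -0.06 in wild type.

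Tested over all genes, the difference between the genotypes passed for 1 gene (0.00872%). Myo1f, an unconventional myosin gene at chr17:33555707-33607764, was at 9.76, 9.41 and 12.7 FPKM in CD28-deficient Treg and 0.717, 0.706 and 1.8 FPKM in CD28-deficient Tconv. In wild type it was at 8.34, 12.8 and 12.2 FPKM in Nrp1-negative Treg and 13.8, 11.2 and 8.34 FPKM in Tconv. The 3 groups other than CD28-deficient Tconv thus shared 1 range, and only that group was low. The difference of the differences was 2.51 ± 0.33 (adjusted p = 0.0111), and 2.75 without CD28-deficient Tconv replicate 3 (adjusted p = 0.00147). The call was lost after quantile normalization (2.10, adjusted p = 0.0631), in a model of the compared groups alone (0.119), and without CD28-deficient Tconv replicate 1 or 2, CD28-deficient Treg replicate 3 or WT Tconv replicate 2 (0.0556 to 0.0621). S100a4 was at 83.1, 104 and 76.1 FPKM in WT Nrp1-negative Treg and 108, 49.8 and 37.4 FPKM in WT Tconv, and S100a6 at 36.6, 37.2 and 23.9 and 57.5, 32.4 and 19.6 FPKM. CD28-deficient Tconv were again the only low group for both genes, and the differences of 3.34 and 3.12 had adjusted p values of 0.0823 and 0.0826. Without CD28-deficient Tconv replicate 3 the test passed for 12 genes: S100a4, S100a6, Myo1f, Cxcr3, Anxa2, Cxcr5, Tnfsf14, Itgb1, Angptl2, Nrn1, Podnl1 and Casp1, all with the higher value of the change in the mutant. The replicate block called 5 genes. In the main fit 950 genes had an unadjusted p under 0.05, where 573 are expected by chance, and 928 of the 950 had the higher change in the mutant. The median difference over all genes was 0.37 as deposited, 0.02 after quantile normalization, -0.04 after rescaling without Mir5105 and 0.11 without WT pTreg replicate 1.

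Set against the Nrp1+ Treg of the same mutant, Nrp1-negative Treg differed in 240 genes (2.09%), 88 higher (0.767%) and 152 lower (1.33%). That count moved with the processing, to 580 after rescaling, 818 after quantile normalization and 507 with the replicate block, and to between 112 and 148 without Treg replicate 1 or 2 of either kind. This comparison shares its Nrp1-negative Treg libraries with the one above. Its spread was estimated over all 18 libraries, Tconv replicate 3 included, and 275 genes were called in the fit without that library. Cited4, a transcriptional co-activator gene, was at 8.46, 4.59 and 6.42 FPKM in Nrp1-negative Treg, 0.679, 0.802 and 0.529 FPKM in Nrp1+ Treg and 0.347, 0.331 and 0.447 FPKM in Tconv. It was higher than in Nrp1+ Treg by 2.13 ± 0.19 (adjusted p = 1.25e-05) and than in Tconv by 2.41 ± 0.19. The lectin receptor gene Klrb1f had the same pattern, with 4.86, 4.67 and 5.5 FPKM, 0.846, 0.763 and 0.517 FPKM and 0.0777, 0.183 and 0.306 FPKM. Ly6c1, a surface protein gene of some memory and resting T cells, was at 176, 211 and 158 FPKM in Nrp1-negative Treg and 34.8, 44.5 and 49 FPKM in Nrp1+ Treg, a difference of 2.07 ± 0.25 (adjusted p = 0.000275); its Tconv levels were 133, 148 and 103 FPKM. The monocarboxylate transporter gene Slc16a5 was at 6.76, 9.26 and 10.03 FPKM in Nrp1-negative Treg, between Nrp1+ Treg at 0.369, 0.472 and 4.89 FPKM and Tconv at 19.6, 24.4 and 20.8 FPKM. It was higher than in Nrp1+ Treg by 2.07 ± 0.40 (adjusted p = 0.00821, but 0.0631 and 0.0663 without Nrp1+ Treg replicate 1 or 2), and its change against Tconv of -1.23 ± 0.40 had an adjusted p of 0.0874, or 0.0201 with the replicate block.

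The integrin beta-1 chain gene Itgb1 was the largest difference in the other direction among the genes named, at 8.26, 10.6 and 10.3 FPKM in Nrp1-negative Treg and 134, 139.9 and 108 FPKM in Nrp1+ Treg (-3.58 ± 0.30, adjusted p = 6.18e-06). Its level in CD28-deficient Tconv, 9.44, 14.3 and 27.9 FPKM, overlapped that in Nrp1-negative Treg. Tigit was at 30.2, 35.1 and 27.8 FPKM in Nrp1+ Treg, which is above every Nrp1-negative library (-2.91 ± 0.41, adjusted p = 0.000725). Nkg7, a granule protein gene of cytotoxic cells, was at 2.26, 2.08 and 4.28 FPKM in Nrp1-negative and 36.5, 34.9 and 27.3 FPKM in Nrp1+ Treg (-3.16 ± 0.41, adjusted p = 0.000454). The activation-induced repressor gene Bhlhe40 and the G protein regulator gene Rgs16 were lower than in Nrp1+ Treg by 3.04 and 2.99 on the log2 scale. For these 5 genes every Nrp1+ Treg library was above every Nrp1-negative one, and Tconv replicate 3 was the highest of the Tconv libraries. The Treg signature list had 7 members lower than in Nrp1+ Treg and none higher, and the checkpoint list 6 lower and none higher. Foxp3, at 101, 105 and 88 FPKM in Nrp1+ Treg, and Ctla4 differed by -0.08 ± 0.73 and -0.08 ± 0.59 (adjusted p = 0.997 and 0.997). In the fit without Tconv replicate 3 the errors were 0.23 and 0.25 (adjusted p = 0.993 and 0.995).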

How the data were processed

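Gene expression was measured by RNA sequencing of sorted splenic CD4 T cells in 18 libraries, 6 of which are compared here. The authors deposited FPKM values for 26665 gene symbols per library; the unit was taken from the tool and the values. Per the submitters' processing notes, Trimmomatic 1, TopHat2 2.0.11, Cufflinks and genome build GRCm38 were used; whether strand was used in counting is not given in the sources used here. The low FPKM values as deposited show no whole-read steps, so depth is unknown.

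Values were taken as log2(FPKM + 1), and the 11467 genes that reached 1 FPKM in 3 or more of the 6 libraries were kept. limma 3.58.1 in R 4.3.3 was fitted to all 18 libraries with 6 group means (12 residual degrees of freedom), with empirical Bayes moderation along the mean trend. P-values were two-sided, adjusted by the Benjamini-Hochberg method over all genes tested, and called under 0.05. The difference between genotypes, the wild-type comparison and the difference from Nrp1+ Treg came from the same model and the same 11467 genes. The script was tested on simulated data. Positions are from GENCODE release M21, on GRCm38.

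Genes were named by a rule: Cd28, Foxp3 and Nrp1 as checks; the 15 largest changes each way among called genes whose libraries did not overlap (8 for the genotype difference, 5 against Nrp1+ Treg); up to 4 called members of each list each way; and Ikzf2, Il2ra, Ctla4, Icos, Tnfrsf18, Dapl1, Igfbp4, Mki67, Bcl2 and Il7r whatever their p. Unnamed gene models, antigen receptor segments, microRNAs, snoRNAs and pseudogenes were left out. Some genes that the rule or the lists hold are not reported here. Further list members, the library checks, Il10 and the genes called in the genotype difference only without a library were named after their values were seen. The members, the 35 lists and the tests were chosen with earlier results of these data known, so no list is independent evidence.

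Libraries with the same replicate number deviated together: the correlations of their deviations from the group means were 0.30, 0.18 and 0.18 between Nrp1-negative Treg and Tconv, all above 0.1. The fit with that number within each genotype as a block was therefore run as an alternative. It stood beside other scalings, filters, pseudocounts and samples, and each library left out in turn.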

Additional observations from a re-analysis of the deposited data

Results flagged for a closer look

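In the main fit, the difference between Nrp1-negative Treg and Tconv was called unequal between the genotypes for Myo1f, an unconventional myosin gene of haematopoietic cells. The change was 2.52 without CD28 and 0.00 in wild type on the log2 scale, and their difference of 2.51 ± 0.33 passed the test of the difference itself (limma, adjusted p = 0.0111). It passed without CD28-deficient Tconv replicate 3 too (adjusted p = 0.00147) and not after quantile normalization (adjusted p = 0.0631). Nor did it pass in a model of the compared groups alone (0.119). The call was also lost without CD28-deficient Tconv replicate 1 or 2, CD28-deficient Treg replicate 3 or WT Tconv replicate 2 (0.0556 to 0.0621). The 3 CD28-deficient Tconv libraries, at 0.717, 0.706 and 1.80 FPKM, were the low ones, and the 3 wild-type Tconv libraries were at 13.8, 11.2 and 8.34 FPKM.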

How the results depend on the processing

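The count of 686 genes called between CD28-deficient Nrp1-negative Treg and Tconv rose to 1244 after quantile normalization, to 1101 with the replicate block, to 2857 with the replicate block and only the compared groups in the model, and to 1989 without CD28-deficient Tconv replicate 3, WT pTreg replicate 1 and WT Tconv replicate 1 together. It ranged from 387 to 648 when 1 library was left out. The genotype difference, with 1 gene called, gave 12 without the filter, 0 with only the compared groups, 0 after quantile normalization, 5 with the replicate block, 8 without the 3 libraries together and 0 to 12 when 1 library was left out. The 240 genes against Nrp1+ Treg became 580 after rescaling without Mir5105, 738 without the filter, 881 with only the compared groups, 147 with a pseudocount of 0.1, 818 after quantile normalization, 507 with the replicate block, 1511 without the 3 libraries together, and 112 to 275 when 1 library was left out. The causes of these shifts were not tested. The replicate block kept the side of the threshold of 84 of 90 named genes in the main comparison and brought 6 past it. Among named genes only Cd28 (-0.41 to 0.0106 when 1 library was left out, above 0 without Treg replicate 1) and Nkg7 (-0.566 to 0.341, above 0 without Tconv replicate 3, and 0.341 without the 3 libraries together) changed sign, and neither passed the test. Depth is unknown, so the counting error of low genes is not known.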

Other observations

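Some values stand outside the comparisons. The cytokine gene Il10, which did not reach the filter, was at 18.2, 10.7 and 7.16 FPKM in WT Nrp1-negative Treg and at 0.103, 0.713 and 0.821 FPKM in the CD28-deficient ones. Nrp1 was at 2.99, 4.99 and 5.08 FPKM in WT Tconv and at 0.627, 0.841 and 12.8 FPKM in CD28-deficient Tconv, with replicate 3 above all the others. Tigit, at 3.21, 2.63 and 4.0 FPKM in CD28-deficient Nrp1-negative Treg, was at 27.3, 36.2 and 35.6 FPKM in the WT ones. Cxcr3 was at 18.2, 31.4 and 29.7 FPKM in WT Nrp1-negative Treg and at 42.5, 35.2 and 27.2 FPKM in WT Tconv, against 12.8, 14 and 15.2 FPKM and 1.78, 2.64 and 9.52 FPKM in the mutant. These comparisons across genotypes were not tested here.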
